A study of Mus musculus with 18 samples.

Results

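Axon guidance genes encode the secreted and membrane-bound cues, and their receptors, of the Slit, netrin, semaphorin and ephrin systems. The genes described here are 46 of the 52489 gene identifiers matched to the GENCODE M21 mouse annotation, named by symbol in a list of these families that was drawn up with earlier results of these data known, with 25 ligands and 21 receptors. All 46 passed the filter on low counts and were among the 16471 genes tested. The list does not hold every gene of the families: of 31 further family genes with a value, 21 were tested. RNA was measured by sequencing in epithelial cells sorted from the mammary glands of nulliparous, untreated MMTV-Cre mice, 12 weeks of age. Each population gave 6 libraries, numbered sample 1 to 6 in the titles. Basal cells were sorted as CD49f-hi/CD61+, alveolar progenitors (AP, also known as luminal progenitors) as CD49f-lo/CD61+, and hormone-sensing luminal cells (HSL, also known as mature luminal cells) as CD49f-lo/CD61-. The sort also stained for EpCAM and for CD31, CD45 and Ter119, which mark endothelial cells, leukocytes and red blood cells. All groups carry the same transgene, Cre recombinase under the mouse mammary tumor virus promoter, so no group without it was compared.

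Slit proteins bind Robo receptors, netrins bind neogenin and Unc5 receptors, secreted semaphorins signal through neuropilins and plexins, and ephrins bind Eph receptor tyrosine kinases on neighbouring cells and can signal in both directions. These systems were first described in the growth of axons and vessels. In the mammary gland, the basal layer of contractile cells surrounds a luminal layer, and Slit, netrin and ephrin signals have been studied for how these layers adhere and sort from each other.

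The promoters of Slit2 and Ephb3 are shown because Slit2 had its highest level in basal cells and Ephb3 in AP cells, by folds given below. Each run comes from the 250 bases before the start of the RefSeq transcript on GRCm38.p6, on the plus strand, which is the strand of both genes. The last 17 bases of the Slit2 window and the last 40 of the Ephb3 window lie inside the GENCODE genes and are not shown. Capitals mark GGGCGG, the core of the GC box bound by Sp1 family factors, on either strand (CCGCCC on the other), with overlapping matches counted. The Slit2 run is chr5:47982905-47983137 and holds 3 matches, and the Ephb3 run is chr16:21204545-21204754 and holds 2.
Slit2: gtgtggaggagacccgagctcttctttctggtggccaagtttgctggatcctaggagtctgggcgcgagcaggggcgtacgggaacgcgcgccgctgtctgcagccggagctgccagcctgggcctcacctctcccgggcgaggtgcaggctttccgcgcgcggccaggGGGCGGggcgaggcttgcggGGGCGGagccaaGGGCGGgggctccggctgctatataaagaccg
Ephb3: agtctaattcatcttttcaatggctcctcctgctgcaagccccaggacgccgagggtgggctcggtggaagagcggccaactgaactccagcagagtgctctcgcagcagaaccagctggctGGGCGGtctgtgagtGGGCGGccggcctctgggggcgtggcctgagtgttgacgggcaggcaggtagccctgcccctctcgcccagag

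GC content was 70.4% in the Slit2 run and 65.2% in the Ephb3 run. A promoter entry was found for 39 of the 46 genes, which gave 51 promoters, since 8 genes have several starts. In the counts of motifs each promoter is its whole window of 250 bases, and 28 of the 51 windows reach into the GENCODE span of their own gene. Sema6a, Plxna1, Plxna4, Sema3f, Efnb3, Ntn1 and Sema3b had no entry. GGGCGG lay in 38 of the 51 promoters (74.5%), against 54.2% of 14823 promoters of tested genes and 32.7% of all 32817 promoters of this length. The E-box CAGGTG lay in 7 (13.7%, against 16.4% of tested genes' promoters and 17.2% of all), GGAATG, a TEAD motif, in 6 (11.8%, against 11.2 and 12.6%), and TGANTCA, an AP-1 motif, in 2 (3.92%, against 4.97 and 6.75%). The forkhead motif TGTTTAC was found in 0 of 51 (2.2% of tested genes' promoters and 3.16% of all) and the ETS motif CCGGAAGT in 0 of 51 (5.21 and 2.88%). Both strands were searched for each motif. A match describes the letters in these windows only.

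The libraries matched their labels, and those of sample 1 stood apart. Total gene counts ran from 26516293 to 91095830 per library. The summed level of 8 basal markers (Krt5, Krt14, Acta2, Trp63 among them) was 24800 to 45200 CPM (read counts normalised to library depth and scaled by TMM factors) in basal libraries and at most 288 in any AP or HSL library. Alveolar progenitor markers (Kit, Elf5 and 6 others) summed to 4160 to 11200 CPM in AP libraries against 1030 to 2930 in basal and 242 to 895 in HSL libraries, and hormone-sensing markers (Esr1, Pgr, Prlr and 5 others) to 4440 to 7390 CPM in HSL libraries against at most 2330 elsewhere. In each of these the library of sample 1 had the lowest sum of its own population. Sample 1 also lay apart on the third principal component of all genes (76.1 to 90.9, against -54.8 to 19.5 in the other libraries). Of the 138 groups of 6 libraries (46 genes in 3 populations), 29 held a library apart from the rest by Dixon's criterion. Independent groups of normally distributed values would do so in about 1 in 20. The groups here share their libraries, so that rate does not measure chance. Of the 29 libraries apart, 22 were from sample 1. Differences whose call changes without sample 1, and called differences whose fold then moves by more than 1.5 times, are therefore given with and without it.

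Most guidance genes were at their highest in basal cells. By mean level, 33 of the 46 genes (71.7%) were highest in the basal libraries, 7 (15.2%) in AP and 6 (13.0%) in HSL libraries, against 39.5, 24.9 and 35.6% of all genes tested. The receptors divided into 16 basal, 4 AP and 1 HSL of 21, and the ligands into 17, 3 and 5 of 25. The 7 genes at their highest in AP cells were Ntn1, Sema3e, Plxnb1, Efna1, Epha2, Epha7 and Ephb3, and the 6 in HSL cells were Sema3f, Sema4a, Sema4b, Sema4c, Sema4d and Plxnb2. In bulk libraries, fewer cells of a type and less RNA per cell cannot be told apart.

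The threshold for a call was an adjusted p of 0.05 in edgeR's quasi-likelihood test with Benjamini-Hochberg adjustment over all 16471 genes. Differences are given as log2 fold changes ± SE, with a positive value where the population named first had the higher level. In AP against basal cells 5 of the 46 genes were called higher (21.5% of all genes tested were) and 30 lower (23.1% of all genes), with 11 not called. With a fold of at least 2, 3 were higher (12.1% of all genes) and 26 lower (15.9%). The libraries of the populations did not overlap for 24 of the 46 genes, against 25.9% of all genes. The median difference of the 46 genes was -1.26, with a median of -0.001 over all genes tested.

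In HSL against basal cells 6 genes were called higher (27.8% of all genes were), 33 lower (30.6%) and 7 not called. With a fold of at least 2, 2 were higher (15.5% of all genes) and 32 lower (21.9%). Libraries did not overlap for 29 of 46, against 36.9% of all genes, and the median difference was -1.57, with -0.06 over all genes. In HSL against AP cells 8 were called higher (19.8% of all genes) and 16 lower (20.1%), with 22 not called. With a fold of at least 2, 5 were higher (8.45% of all genes) and 15 lower (13.5%). Libraries did not overlap for 14 of 46, against 20.6% of all genes. The median was -0.62, with -0.01 over all genes. The 3 comparisons share their libraries, so their counts are not independent of each other.

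Without sample 1, 7 genes were called higher and 31 lower in AP against basal, 6 and 34 in HSL against basal, and 9 and 20 in HSL against AP cells. With the sample number as a block, these counts were 6 and 31, 6 and 36, and 9 and 19. Of the 98 calls over the 3 comparisons, 78 held whichever 1 sample was left out. The count higher in HSL than AP cells was 3 without sample 6 and 5 without sample 3. Scaling by total counts moved the median of all genes from -0.011 to -0.185 in HSL against AP cells, where the share of calls that were higher went from 49.6 to 35.6%, and 4 guidance genes were then called higher. In AP against basal cells it moved that median from -0.001 to 0.136 and the median of the guidance genes from -1.26 to -1.12.

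**Figure D1:**
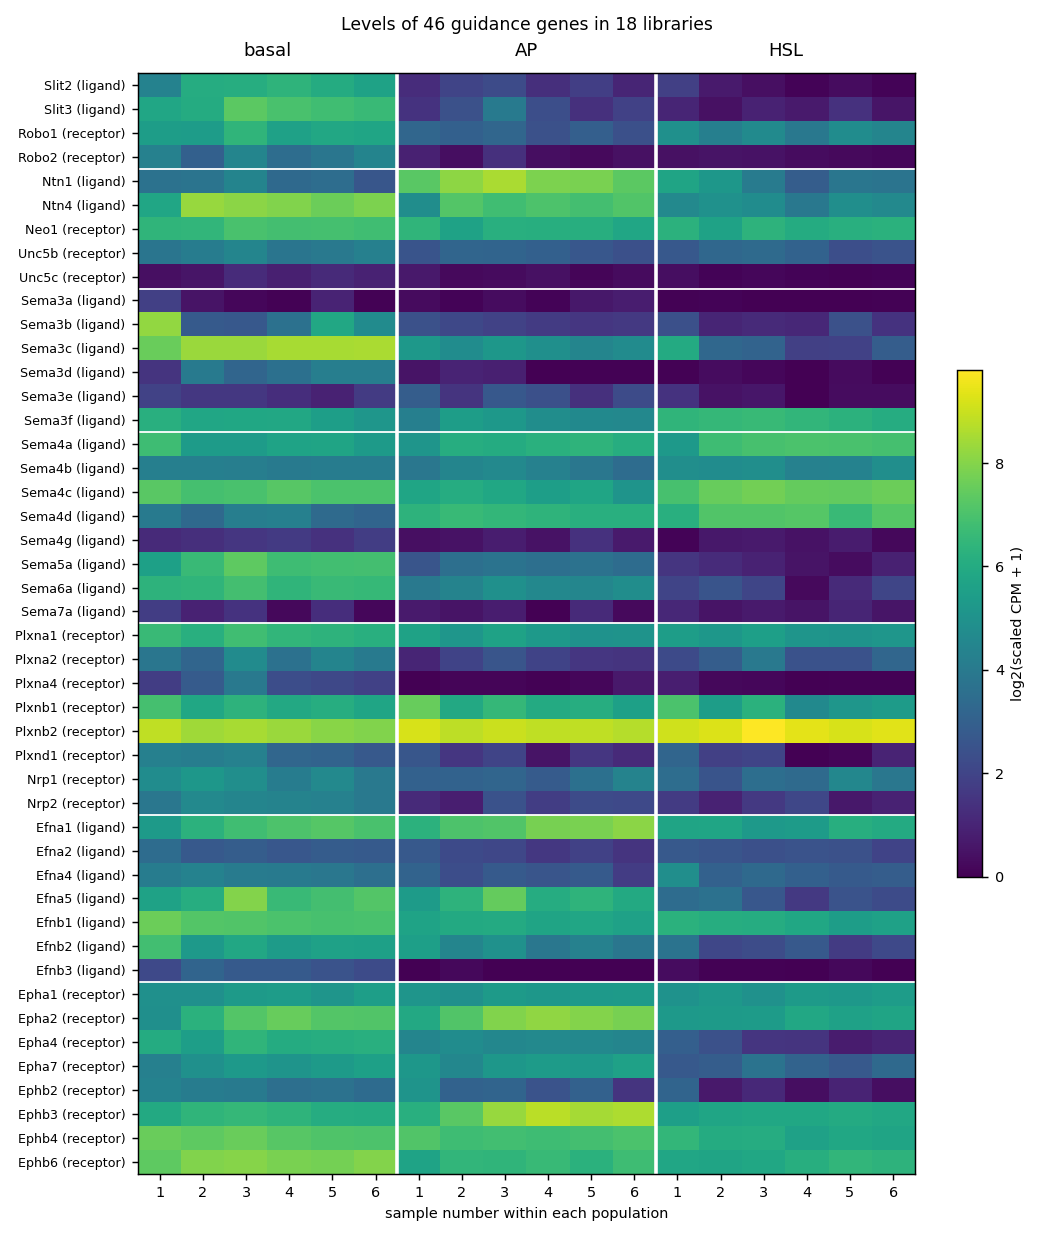
Level of each of the 46 guidance genes (one line per gene, in order of family, with its role) in each of the 18 libraries (columns, sample 1 to 6 within basal, AP and HSL), coloured by log2(scaled CPM + 1). The Slit, Robo2, Sema3c, Sema5a and Sema6a lines are bright in the 6 basal columns and darker in the AP and HSL columns, Ntn1 and Ephb3 are brightest in AP columns, and Plxnb2 is bright throughout.

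**Figure D2:**
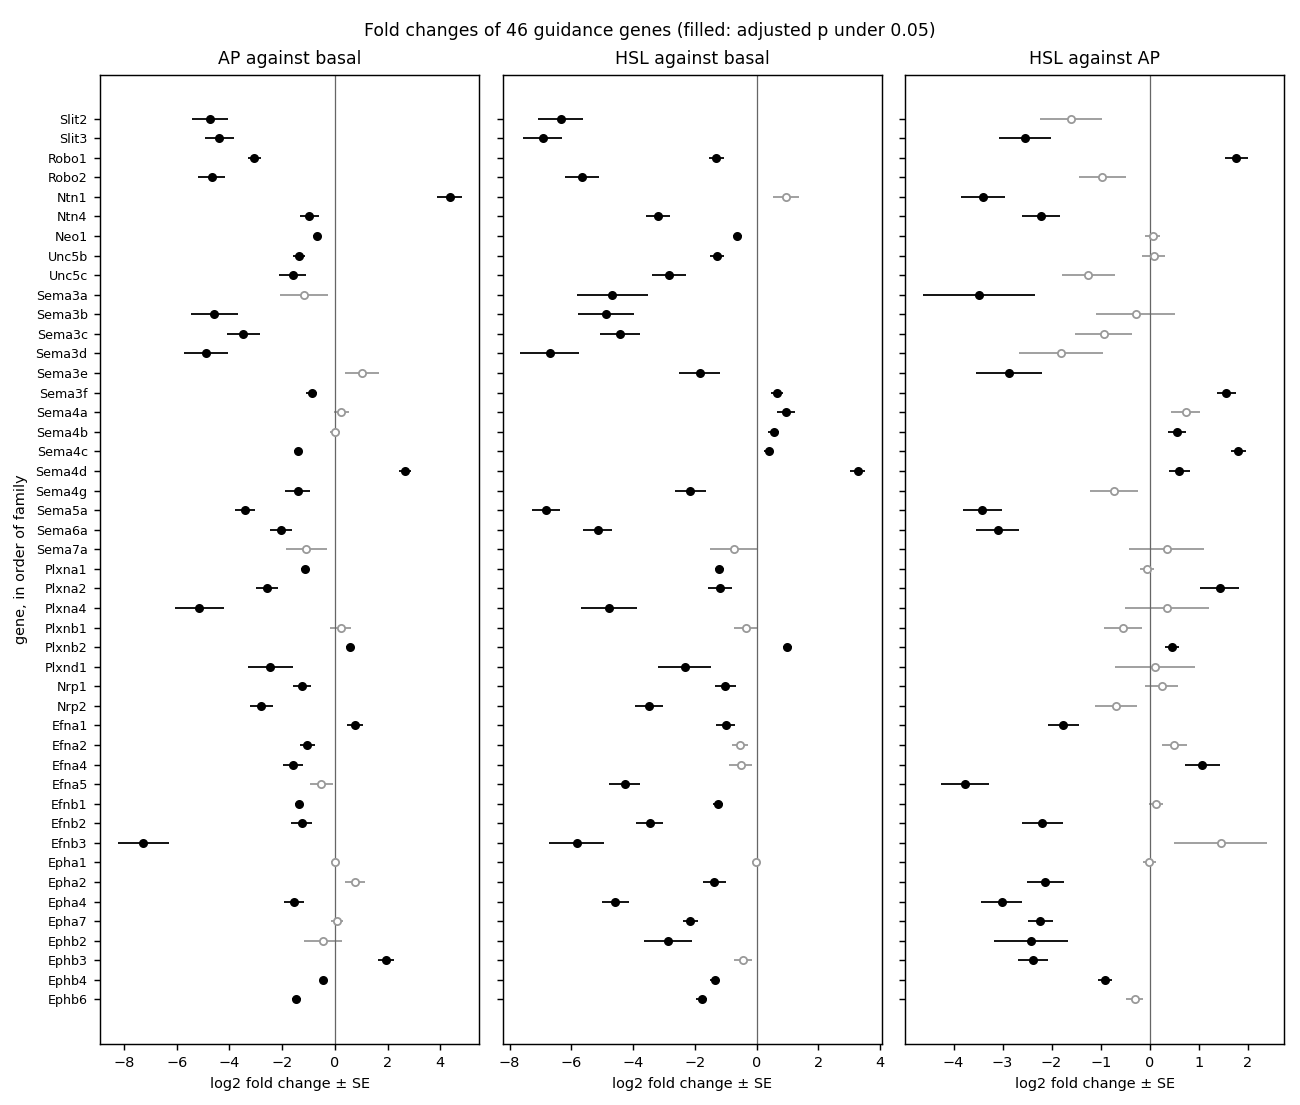
Log2 fold change ± SE of the 46 genes (vertical axis, in order of family) in the 3 comparisons, on horizontal axes that differ in range. Filled points passed an adjusted p under 0.05. Most filled points lie left of 0 in the first 2 panels (30 and 33 genes lower than basal), while the HSL against AP panel has filled points on both sides (8 higher and 16 lower).

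Both Slit ligands and both Robo receptors were higher in basal cells than in either luminal population. Slit2, a secreted ligand of Robo receptors (ENSMUSG00000031558, chr5:47983138-48307733, plus strand), had a lowest, median and highest level of 19.3, 65.6 and 82.9 CPM in the 6 basal libraries, of 1.02, 2.0 and 3.72 CPM in AP libraries, and of 0.0661, 0.294 and 2.66 CPM in HSL libraries. Every basal library lay above every luminal one, and the HSL library of sample 1 was high for its population (2.66 CPM, others up to 0.629). Slit2 was lower by -4.74 ± 0.68 in AP than basal cells (adjusted p = 1.6e-05) and by -6.35 ± 0.74 in HSL than basal cells (adjusted p = 8.59e-07; -7.88 ± 0.50 without sample 1). The difference of HSL from AP cells was -1.61 ± 0.63 (adjusted p = 0.0509), and it passed the test without sample 1 (-3.07 ± 0.46, adjusted p = 5.02e-05) and with the sample block (-1.85, adjusted p = 0.0472).

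Slit3 (ENSMUSG00000056427, chr11:35121224-35708507, plus strand), the other Slit gene among the members, stood at 54.7, 105 and 158 CPM in basal, 1.54, 3.4 and 15.0 CPM in AP and 0.363, 0.758 and 1.63 CPM in HSL libraries (lowest, median, highest, as in all such triplets below). The basal libraries were again apart from the others, and the AP library of sample 3 was the high one in its population (15.0 CPM, others up to 4.35). The differences were -4.38 ± 0.55 for AP against basal (adjusted p = 2.96e-06), -6.93 ± 0.63 for HSL against basal (adjusted p = 3.38e-08) and -2.55 ± 0.53 for HSL against AP cells (adjusted p = 0.000943; -1.86, adjusted p = 0.00391, without sample 3).

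The receptors differed from each other in HSL cells. Robo1 (ENSMUSG00000022883, chr16:72308306-73046095, plus strand) was at 42.0, 50.5 and 84.4 CPM in basal, 4.21, 6.89 and 8.49 CPM in AP and 14.0, 22.9 and 29.2 CPM in HSL libraries. No libraries of different populations overlapped, and the order was basal, HSL, AP. Robo1 was lower in AP than basal cells by -3.06 ± 0.24 (adjusted p = 1e-08), lower in HSL than basal cells by -1.30 ± 0.23 (adjusted p = 7.58e-05) and higher in HSL than AP cells by 1.76 ± 0.23 (adjusted p = 1.15e-05). Robo2, on the minus strand at chr16:73891839-74411825 (ENSMUSG00000052516), is 846 kb from Robo1. It stood at 7.1, 16.2 and 20.7 CPM in basal, 0.203, 0.321 and 1.56 CPM in AP and 0.123, 0.309 and 0.435 CPM in HSL libraries, so that basal libraries alone were above 2 CPM. The differences from basal were -4.68 ± 0.51 in AP (adjusted p = 5.91e-07) and -5.65 ± 0.54 in HSL cells (adjusted p = 7.05e-08), and HSL and AP cells differed by -0.97 ± 0.48 (adjusted p = 0.115).

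Of the Slit and Robo genes outside the 46, Slit1 averaged 0.362 ± 0.138 CPM (SD, n = 6) in AP, 0.101 ± 0.166 in basal and 0.102 ± 0.16 in HSL libraries and was not called, and Robo3 did not pass the low-count filter. Robo4, an endothelial Robo receptor, was at 9.39 ± 3.73 CPM (SD, n = 6) in basal, 1.90 ± 0.835 in AP and 1.41 ± 1.01 CPM in HSL libraries, lower by -2.30 ± 0.50 in AP (adjusted p = 0.00104) and by -2.72 ± 0.51 in HSL than basal cells (adjusted p = 0.000174). The 12 endothelial markers, with Vwf, Pecam1 and Eng the most abundant, moved the same way in AP cells: their summed level was 137 to 437 CPM in basal, 68.5 to 155 in AP and 142 to 273 CPM in HSL libraries, none was at 0 throughout, and 12 of 12 were called lower in AP than basal cells (median -1.81). In HSL against basal cells 10 were lower and Vwf was higher (0.91 ± 0.33, adjusted p = 0.0231; 0.67, adjusted p = 0.104 without sample 1). The part of endothelial RNA in the results for Robo4 and for the other genes of vessels was not tested.

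The netrin ligands Ntn1 and Ntn4 had different peaks. Ntn1 encodes netrin-1, the secreted founding member of the family (ENSMUSG00000020902, chr11:68209364-68400823, minus strand). Its level was 5.12, 11.1 and 20.4 CPM in basal, 156, 231 and 376 CPM in AP and 6.45, 14.6 and 51.9 CPM in HSL libraries. All 6 AP libraries were above every other library, while basal and HSL libraries overlapped. AP cells were higher than basal cells by 4.36 ± 0.47 (adjusted p = 5.8e-07) and HSL cells lower than AP cells by -3.40 ± 0.45 (adjusted p = 1.32e-05). The difference of HSL from basal cells was 0.96 ± 0.42 (adjusted p = 0.0581). It was 0.50 ± 0.40 without sample 1 (adjusted p = 0.287), whose HSL library was the highest at 51.9 CPM, and it passed the test without sample 3 (1.26, adjusted p = 0.0306) or 4 (1.10, adjusted p = 0.0428) and by DESeq2 (0.93, adjusted p = 0.0436).

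Ntn4, a netrin found in basement membranes that binds laminin (ENSMUSG00000020019, chr10:93640681-93747207, plus strand), stood at 55.3, 240 and 313 CPM in basal, 26.8, 125 and 144 CPM in AP and 14.2, 24.7 and 30.1 CPM in HSL libraries. Sample 1 was the low library in basal (55.3) and in AP cells (26.8 CPM, others at least 111), and its AP library was the one that overlapped the HSL libraries. HSL cells were lower than basal cells by -3.19 ± 0.39 (adjusted p = 1.59e-06) and than AP cells by -2.22 ± 0.38 (adjusted p = 0.000151). The difference of AP from basal cells was -0.97 ± 0.36 (adjusted p = 0.037), lower in 6 of 6 samples. It was -0.96 without sample 1 (adjusted p = 0.000243), and lost its call without sample 2 (adjusted p = 0.0916), 3 (0.133), 4 (0.0711), 5 (0.0815) or 6 (0.0854), with scaling by total counts (0.0622), with no low-count filter (0.0615), by limma-voom (0.0567) and with only these populations fitted (0.0824). Another gene shares 10.4% of the Ntn4 span.

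The netrin receptors Neo1, Unc5b and Unc5c were lower in both luminal populations than in basal cells. Neo1, neogenin, a receptor for netrins and for repulsive guidance molecules, averaged 106 ± 17 CPM in basal, 66.6 ± 12.7 in AP and 69.4 ± 11 CPM in HSL libraries (SD, n = 6). The differences from basal were -0.67 ± 0.15 (adjusted p = 0.000975) and -0.62 ± 0.15 (adjusted p = 0.00144), and 33.8% of its span is shared with another gene. Unc5b, a netrin receptor of vessels and epithelia, averaged 16 ± 3.19, 6.28 ± 1.62 and 6.63 ± 2.22 CPM (SD, n = 6), lower than basal by -1.35 ± 0.23 in AP (adjusted p = 0.000114) and -1.27 ± 0.23 in HSL cells (adjusted p = 0.000132). HSL and AP cells differed by 0.06 ± 0.15 for Neo1 (adjusted p = 0.777) and by 0.08 ± 0.23 for Unc5b (adjusted p = 0.816). Unc5c, a further netrin receptor, had at most 1.3 CPM in any library. It was lower than basal in AP cells (-1.60 ± 0.51, adjusted p = 0.0154; not called without sample 3, 5 or 6, adjusted p = 0.0878, 0.0646 and 0.0602) and in HSL cells (-2.85 ± 0.55, adjusted p = 0.00021; -3.67 ± 0.48 without sample 1). For HSL against AP cells its adjusted p went from 0.0733 to 0.0131 without sample 1. Another gene shares 23.3% of its exons.

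Dcc, the classical attractive netrin receptor, averaged at most 0.112 CPM in any population and did not pass the filter. Ntng1, netrin-G1, a membrane-anchored relative, followed the pattern of genes low in HSL cells alone. It averaged 74.2 ± 13.5 CPM in basal, 76.4 ± 25.0 in AP and 5.79 ± 4.47 CPM in HSL libraries (SD, n = 6), and HSL cells were lower by -3.67 ± 0.47 than basal (adjusted p = 2.79e-06) and by -3.71 ± 0.48 than AP cells (adjusted p = 8.79e-06). Rgma, a ligand of neogenin, was lower in HSL than AP cells by -2.15 ± 0.56 (adjusted p = 0.00536), at 9.08 ± 3.22, 6.93 ± 4.20 and 1.54 ± 1.63 CPM in basal, AP and HSL libraries (SD, n = 6).

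The secreted class 3 semaphorins included some of the largest basal excesses and, in Sema3f, an opposite pattern. In AP against basal cells 4 of 6 were called lower and 0 higher (23.1 and 21.5% of all genes were). In HSL against basal cells 5 were lower and 1 higher (30.6 and 27.8% of all genes). Sema3c (ENSMUSG00000028780, chr5:17574281-17730268, plus strand), which signals through neuropilins and Plxnd1, stood at 189, 343 and 377 CPM in basal, 21, 27.5 and 36.5 CPM in AP and 2.6, 7.09 and 61.8 CPM in HSL libraries. Basal libraries were all above the others, the basal library of sample 1 was the lowest of its population, and the HSL library of sample 1 the highest of its own (61.8 CPM, others up to 8.64).

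Sema3c was lower than basal by -3.48 ± 0.63 in AP (adjusted p = 0.000193) and by -4.42 ± 0.66 in HSL cells (adjusted p = 1.5e-05; -5.98 ± 0.33, adjusted p = 4.11e-10, without sample 1). HSL and AP cells differed by -0.94 ± 0.58 (adjusted p = 0.214). Without sample 1 that difference was -2.31 ± 0.29 (adjusted p = 8.46e-06), and with the sample block it was -1.66 (adjusted p = 0.028).

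Sema3b (ENSMUSG00000057969, chr9:107597674-107609229, minus strand), a neuropilin ligand, was at 5.49, 18.7 and 296 CPM in basal, 1.94, 2.52 and 4.37 CPM in AP and 1.02, 1.48 and 4.46 CPM in HSL libraries. The value of 296 CPM was the basal library of sample 1, against 5.49 to 58.0 in the other 5, and no basal library overlapped with the luminal ones. The difference from basal was -4.58 ± 0.90 in AP (adjusted p = 0.000394) and -4.87 ± 0.91 in HSL cells (adjusted p = 0.000167). Without sample 1 it was -3.08 ± 0.62 (adjusted p = 0.000643) and -3.50 ± 0.64 (adjusted p = 0.000177).

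Sema3d (ENSMUSG00000040254, chr5:12383385-12588948, plus strand), another neuropilin ligand, was at 1.77, 13.1 and 17.4 CPM in basal, 0.0158, 0.246 and 0.99 CPM in AP and 0.022, 0.0769 and 0.242 CPM in HSL libraries. Luminal libraries held so few reads (125 over the 6 AP and 25 over the 6 HSL libraries, against 3732 in basal) that the size of the fold is imprecise. The differences from basal were -4.89 ± 0.85 (adjusted p = 0.000125) and -6.70 ± 0.96 (adjusted p = 9.1e-06), with no overlap of libraries.

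Sema3f, a ligand of Nrp2 that lies 72.3 kb from Sema3b on chromosome 9, averaged 52.5 ± 12.5 CPM in basal, 28.4 ± 9.17 in AP and 83.8 ± 11.3 CPM in HSL libraries (SD, n = 6). It was lower in AP than basal cells (-0.88 ± 0.20, adjusted p = 0.00124) and higher in HSL than basal (0.67 ± 0.20, adjusted p = 0.00668) and AP cells (1.56 ± 0.20, adjusted p = 9.2e-06). Sema3e, the ligand of Plxnd1, averaged 1.90 ± 0.652, 3.88 ± 1.95 and 0.518 ± 0.601 CPM (SD, n = 6) and was lower in HSL than AP cells (-2.87 ± 0.68, adjusted p = 0.00257; -3.60 ± 0.65 without sample 1). It was lower in HSL than basal cells by -1.84 ± 0.66 (adjusted p = 0.0235; -2.61 ± 0.63, adjusted p = 0.00185, without sample 1), a call lost without sample 2 (adjusted p = 0.0682), 3 (0.0691) or 6 (0.0842). Sema3a, the collapsin that first defined the class, had at most 2.64 CPM, in the basal library of sample 1, and 6 reads in all HSL libraries. It was called lower in HSL than basal (-4.68 ± 1.15, adjusted p = 0.00188; -3.73, adjusted p = 0.0123, without sample 1 and -5.43 without sample 2) and AP cells (-3.49, adjusted p = 0.0201; -4.35 without sample 2). The latter call was lost without sample 5 (adjusted p = 0.0856) and by limma-voom (0.0575).

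**Figure D3:**
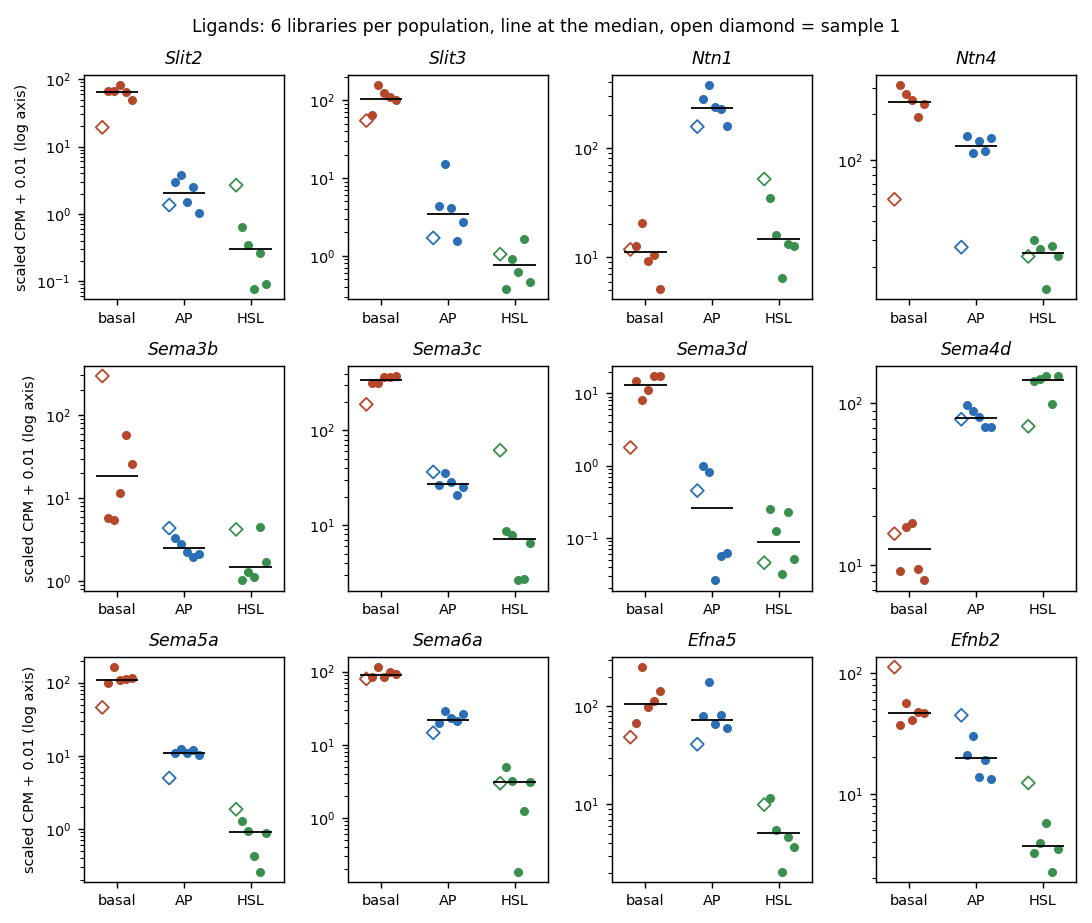
Level of the 12 ligands for which library values are given, in scaled CPM + 0.01 on a log axis, with 1 point per library, a line at the median of 6 and an open diamond for sample 1. Slit2, Slit3, Sema3c, Sema5a and Sema6a have all basal points above all luminal points, Ntn1 has all AP points on top (156 to 376 CPM), Sema4d has its basal points at the bottom (8.01 to 18.1 CPM), and the open diamond lies apart in HSL for Sema3c (61.8 CPM) and in basal for Sema3b (296 CPM).

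Membrane-bound semaphorins divided by class, with 4 of the 5 class 4 members at their highest mean in HSL and the class 5 and 6 members in basal cells. Sema4d (ENSMUSG00000021451, chr13:51685529-51793747, minus strand), the ligand of Plxnb1 and, on leukocytes, of CD72, was at 8.01, 12.5 and 18.1 CPM in basal, 71.0, 81.2 and 97.1 CPM in AP and 72.2, 140 and 148 CPM in HSL libraries. All luminal libraries lay above all basal ones, and AP and HSL libraries overlapped. AP cells were higher than basal by 2.67 ± 0.23 (adjusted p = 2.72e-08) and HSL cells by 3.27 ± 0.23 (adjusted p = 1.82e-09). HSL were higher than AP cells by 0.60 ± 0.21 (adjusted p = 0.0322), in 5 of 6 samples, and this call was lost without sample 2 (adjusted p = 0.0555), 3 (0.101), 4 (0.0874), 5 (0.0584) or 6 (0.145) and with scaling by total counts (0.12) or no low-count filter (0.0817).

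Leukocyte markers, among which Lyz2, Csf1r and Laptm5 were the most abundant, summed to 81.4 to 432 CPM in basal, 10.9 to 143 in AP and 6.89 to 204 CPM in HSL libraries. Each of these maxima was the library of sample 1, with the others up to 396, 111 and 103 CPM. Of 9 tested markers 2 were lower in AP than basal cells and 7 not called, 3 were lower in HSL than basal cells and 6 not called, and 0 were called between HSL and AP cells. Itgam was listed at 0 throughout, and since 99.1% of its exons are shared with another gene, that value says nothing of its level. The part of leukocyte RNA in the results for Sema4d and Sema4a was not tested.

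Sema4a, a semaphorin also known from immune cells, averaged 54.9 ± 26.2 CPM in basal, 64.7 ± 16.4 in AP and 107 ± 34.3 CPM in HSL libraries (SD, n = 6). Sample 1 was apart in every population, high in basal (107 CPM, others 39.1 to 52.2) and low in AP (33.7, others at least 64.5) and HSL cells (38.4, others at least 108). HSL were higher than basal cells by 0.96 ± 0.30 (adjusted p = 0.00949; 0.0505 without sample 6). Without sample 1 the differences were 0.68 ± 0.10 for AP against basal (adjusted p = 3.76e-05, from 0.545 with it), 1.42 ± 0.10 for HSL against basal (adjusted p = 6.49e-09) and 0.74 ± 0.10 for HSL against AP cells (adjusted p = 1.88e-05, from 0.0582).

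Sema4c, a ligand of Plxnb2, averaged 135 ± 14.9 CPM in basal, 50.9 ± 11.5 in AP and 177 ± 29.5 CPM in HSL libraries (SD, n = 6). It was lower in AP than basal cells by -1.41 ± 0.15 (adjusted p = 5.62e-07) and higher in HSL than AP cells by 1.80 ± 0.15 (adjusted p = 2.12e-07). Its 0.39 ± 0.15 higher level in HSL than basal cells (adjusted p = 0.0335) was not called without sample 2, 3, 4, 5 or 6 (adjusted p = 0.0902, 0.148, 0.0512, 0.0939 and 0.0706), with scaling by total counts (0.0599) or with no low-count filter (0.063). Sema4b averaged 16.7 ± 1.09, 16.8 ± 5.06 and 24.6 ± 4.36 CPM (SD, n = 6), higher in HSL than basal by 0.56 ± 0.18 (adjusted p = 0.0126) and than AP cells by 0.55 ± 0.18 (adjusted p = 0.0202). The latter call was lost without sample 1 (adjusted p = 0.0847) or 6 (0.157), with scaling by total counts (0.128), with no low-count filter (0.0689) and with only these populations fitted (0.0745). Sema4g had at most 2.47 CPM and was lower than basal in AP (-1.41 ± 0.48, adjusted p = 0.0224; not called without sample 2, 3, 4 or 6, adjusted p = 0.0684, 0.0658, 0.0888 and 0.0785) and HSL cells (-2.14 ± 0.50, adjusted p = 0.00118). Sema7a, a lipid-anchored semaphorin, had at most 2.46 CPM and was not called in any comparison (adjusted p = 0.274, 0.43 and 0.754).

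Sema5a, a transmembrane semaphorin with thrombospondin repeats (ENSMUSG00000022231, chr15:32244810-32696341, plus strand), fell stepwise from basal to AP to HSL cells. It was at 45.9, 110 and 163 CPM in basal, 4.95, 10.8 and 12.3 CPM in AP and 0.251, 0.896 and 1.85 CPM in HSL libraries, with no overlap between populations. The differences were -3.40 ± 0.38 for AP against basal (adjusted p = 7.05e-07), -6.81 ± 0.45 for HSL against basal (adjusted p = 6.53e-10) and -3.41 ± 0.39 for HSL against AP cells (adjusted p = 2.87e-06).

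The same order held for Sema6a, a transmembrane ligand of class A plexins (ENSMUSG00000019647, chr18:47235598-47368870, minus strand). Its level was 79.6, 88.8 and 115 CPM in basal, 14.6, 22.1 and 28.9 CPM in AP and 0.176, 3.05 and 4.91 CPM in HSL libraries, again without overlap. AP cells were lower than basal by -2.05 ± 0.41 (adjusted p = 0.000505), HSL cells lower than basal by -5.15 ± 0.48 (adjusted p = 4.63e-08) and HSL cells lower than AP cells by -3.10 ± 0.44 (adjusted p = 2.28e-05).

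Fibroblast markers, with Dcn, Col3a1 and Col1a2 the most abundant, were low in HSL libraries as well. The 12 markers summed to 953 to 1270 CPM in basal, 648 to 1640 in AP and 41.6 to 120 CPM in HSL libraries, and none was at 0 throughout. All 12 were called lower in HSL than AP cells (median -4.15) and 11 lower in HSL than basal cells (median -3.5), whereas in AP against basal cells 6 were higher and 2 lower. Of the 46 guidance genes, 16 were called lower in HSL than AP cells (20.1% of all genes were), 8 higher (19.8%) and 22 not called. The ligands among the 16 were Slit3, Ntn1, Ntn4, Sema3a, Sema3e, Sema5a, Sema6a, Efna1, Efna5 and Efnb2. The receptors among them were Epha2, Epha4, Epha7, Ephb2, Ephb3 and Ephb4. The part of fibroblast RNA in these results was not tested.

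Pericyte markers were mostly lower than basal in both luminal populations, as most guidance genes were. Of 8 markers, 6 were called lower and 1 higher in AP than basal cells (median -1.95), and 7 lower and 1 higher in HSL than basal cells (median -2.96). The marker called higher was Notch3, which averaged 11 CPM in basal, 115 in AP and 104 CPM in HSL libraries and shares 44.8% of its exons with another gene. Mcam, the most abundant in basal cells, averaged 124, 21 and 4.68 CPM, and Rgs5 26, 5.04 and 2.75 CPM. The summed level of the 8, with Notch3 the largest share in luminal libraries, was 138 to 252 CPM in basal, 123 to 222 in AP and 82.8 to 160 CPM in HSL libraries, and none was at 0 throughout. The part of pericyte RNA in the guidance results was not tested.

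Outside the 46 genes, Sema6d, a transmembrane ligand of Plxna1, averaged 124 ± 27.3 CPM in basal, 3.72 ± 1.49 in AP and 0.769 ± 1.16 CPM in HSL libraries (SD, n = 6). It was lower than basal by -5.07 ± 0.68 (adjusted p = 6.53e-06) and -7.23 ± 0.76 (adjusted p = 2.12e-07), and lower in HSL than AP cells by -2.17 ± 0.63 (adjusted p = 0.0106; -3.72 without sample 1). Sema4f was higher in HSL cells: it averaged 0.365 ± 0.291, 1.33 ± 1.26 and 10.5 ± 6.80 CPM (SD, n = 6), 4.83 ± 0.90 above basal (adjusted p = 0.000149) and 2.98 ± 0.81 above AP cells (adjusted p = 0.00697).

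The semaphorin receptors were mostly lower in luminal cells. Of 8 plexin and neuropilin genes, 6 were called lower than basal in AP (23.1% of all genes were) and 6 in HSL cells (30.6%). Plxnb2, the receptor of Sema4c and other class 4 semaphorins, was called higher in both. It averaged 330 ± 78.1 CPM in basal, 486 ± 61.5 in AP and 662 ± 120 CPM in HSL libraries (SD, n = 6), higher than basal by 0.56 ± 0.15 in AP (adjusted p = 0.00621) and 1.00 ± 0.15 in HSL cells (adjusted p = 1.97e-05). The difference between HSL and AP cells was 0.45 ± 0.15 (adjusted p = 0.0262) and was not called without sample 2, 3, 4, 5 or 6 (adjusted p = 0.0714, 0.145, 0.0871, 0.055 and 0.0988), with scaling by total counts (0.25, adjusted p = 0.233) or with no low-count filter (adjusted p = 0.08). Plxnb1, the receptor of Sema4d, averaged 72.7 ± 25.1, 84.9 ± 50.9 and 57.9 ± 38.8 CPM (SD, n = 6) and was not called (adjusted p = 0.67, 0.489 and 0.277). Its AP library of sample 1 was at 185 CPM, others up to 90.1. With the sample block Plxnb1 was lower in HSL than basal (-0.48, adjusted p = 0.0165) and AP cells (-0.60, adjusted p = 0.0069).

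Plxna2, a co-receptor with neuropilins that also binds Sema6a (ENSMUSG00000026640, chr1:194618218-194816869, plus strand), was at 8.1, 14.4 and 25.2 CPM in basal, 1.02, 2.46 and 5.04 CPM in AP and 3.62, 5.51 and 14.5 CPM in HSL libraries. Basal and AP libraries did not overlap, and HSL libraries overlapped with both. It was lower in AP than basal cells by -2.58 ± 0.41 (adjusted p = 4.96e-05). HSL cells lay between, lower than basal by -1.17 ± 0.39 (adjusted p = 0.0165; 0.0815 without sample 5) and higher than AP cells by 1.42 ± 0.40 (adjusted p = 0.00841; 0.0616 without sample 6).

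Plxnd1, the receptor of Sema3e and, with neuropilins, of Sema3c (ENSMUSG00000030123, chr6:115954811-115995005, minus strand), was at 5.61, 12.6 and 18.8 CPM in basal, 0.426, 1.94 and 5.23 CPM in AP and 0.022, 1.81 and 8.08 CPM in HSL libraries. Sample 1 gave the highest AP and HSL values. Differences from basal were -2.45 ± 0.85 in AP (adjusted p = 0.0251) and -2.33 ± 0.85 in HSL cells (adjusted p = 0.0245). Without sample 1 they were -2.74 (adjusted p = 0.0111) and -3.10 (adjusted p = 0.00436). Both calls were lost without sample 2 (adjusted p = 0.0875 and 0.0762), 3 (0.0795 and 0.0759) or 6 (0.0602 and 0.0551). Plxnd1 is known from endothelial cells, whose markers were also called lower than basal in AP (12 of 12) and HSL cells (10 of 12). Vwf was higher in HSL cells. The part of endothelial RNA here was not tested.

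Nrp2, a neuropilin that binds Sema3f and other class 3 semaphorins (ENSMUSG00000025969, chr1:62703285-62818695, plus strand), was at 13.6, 19.4 and 23.6 CPM in basal, 0.755, 2.96 and 4.48 CPM in AP and 0.533, 1.49 and 3.19 CPM in HSL libraries. Basal libraries were all above the luminal ones, which overlapped each other. The differences from basal were -2.79 ± 0.45 (adjusted p = 5.28e-05) and -3.48 ± 0.46 (adjusted p = 3.92e-06). Nrp1, the receptor of Sema3a and a co-receptor of vascular endothelial growth factor, averaged 23.9 ± 7.55, 10.1 ± 5.22 and 11.9 ± 5.80 CPM (SD, n = 6). It was lower than basal by -1.25 ± 0.34 in AP (adjusted p = 0.00589) and by -1.01 ± 0.34 in HSL cells (adjusted p = 0.0164; 0.0893 without sample 2 and 0.0614 without sample 3).

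Among the class A plexins, Plxna1 averaged 86.1 ± 15.7, 38.8 ± 8.24 and 37.2 ± 5.58 CPM (SD, n = 6), lower than basal by -1.15 ± 0.15 (adjusted p = 5.42e-06) and -1.21 ± 0.15 (adjusted p = 1.88e-06), and 48.7% of its exons are shared with another gene. Plxna4 averaged 5.54 ± 4.64 CPM in basal libraries, where sample 3 reached 14.6, with 42 reads over the AP libraries, 24 of them in sample 6, and 56 over the HSL libraries, 43 of them in sample 1. AP cells were lower than basal by -5.14 ± 0.93 (adjusted p = 0.000175; -4.40 without sample 3 and -6.40 without sample 6). HSL cells were lower by -4.79 ± 0.91 (adjusted p = 0.000182; -6.39 ± 0.84 without sample 1 and -4.13 without sample 3). Plxna3, outside the 46 genes, was higher than basal in AP (1.05 ± 0.23, adjusted p = 9e-04) and HSL cells (1.21 ± 0.23, adjusted p = 0.00016), a gene chosen for mention after its values were seen because it was one of few plexins higher in luminal cells.

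**Figure D4:**
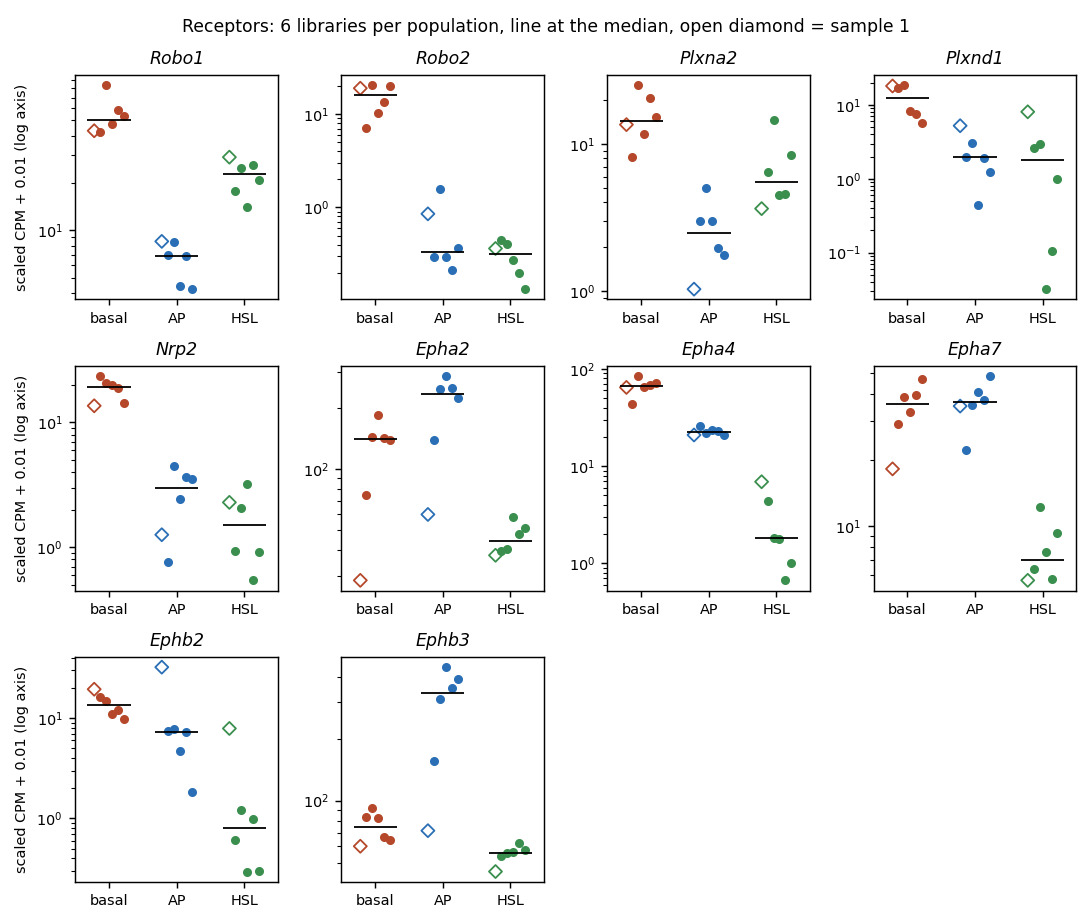
Level of the 10 receptors for which library values are given, in scaled CPM + 0.01 on a log axis, with 1 point per library, a line at the median of 6 and an open diamond for sample 1. Robo2 and Nrp2 have all basal points on top, Robo1 separates into basal, HSL and AP in that order, Epha4 steps down from basal to AP to HSL, and Ephb3 is highest in 5 AP libraries with the AP library of sample 1 (71.5 CPM) among the basal ones.

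Of 7 ephrin ligands, 5 were called lower than basal in AP (23.1% of all genes were) and 5 in HSL cells (30.6%). Efna1 was called higher in AP than basal cells. Efna5, a lipid-anchored ligand of EphA receptors (ENSMUSG00000048915, chr17:62604184-62881317, minus strand), was at 48.6, 107 and 252 CPM in basal, 41.1, 73.4 and 179 CPM in AP and 2.05, 5.04 and 11.7 CPM in HSL libraries. All HSL libraries were below all others, and basal and AP libraries overlapped. Against basal cells HSL cells were lower by -4.27 ± 0.50 (adjusted p = 8.41e-07) and against AP cells by -3.76 ± 0.49 (adjusted p = 1.03e-05), and AP and basal cells differed by -0.52 ± 0.44 (adjusted p = 0.361). Sample 3 was the highest in AP cells (179 CPM, others up to 81.4).

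Efnb2, a transmembrane ligand of EphB receptors and Epha4 that also marks arterial endothelium (ENSMUSG00000001300, chr8:8617434-8661242, minus strand), was at 36.9, 47.1 and 112 CPM in basal, 13.2, 19.9 and 44.7 CPM in AP and 2.26, 3.67 and 12.3 CPM in HSL libraries. The HSL libraries lay below all others, and sample 1 was high in basal (112 CPM, others up to 57.0) and in HSL cells (12.3, others up to 5.73). HSL cells were lower than basal by -3.46 ± 0.44 (adjusted p = 2.19e-06) and than AP cells by -2.19 ± 0.42 (adjusted p = 0.000412). AP cells were lower than basal by -1.26 ± 0.40 (adjusted p = 0.0155; 0.0534 without sample 6, 0.0516 with scaling by total counts and 0.000605 without sample 1). Another gene shares 26% of its span and 0% of its exons.

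Efnb1, the transmembrane ephrin encoded on the X chromosome, averaged 142 ± 25.2 CPM in basal, 54.9 ± 6.23 in AP and 59.4 ± 13.1 CPM in HSL libraries (SD, n = 6), lower than basal by -1.37 ± 0.15 (adjusted p = 4.89e-07) and -1.25 ± 0.15 (adjusted p = 8.29e-07). Efnb3 was detected almost wholly in basal cells, at 5.21 ± 1.64 CPM (SD, n = 6) from 1587 reads, with 10 reads over the 6 AP libraries, of which 4 were at 0, and 23 over the 6 HSL libraries, of which 2 were at 0. It was lower than basal in AP (-7.27, adjusted p = 7.1e-06; -9.43 without sample 2) and HSL cells (-5.83 ± 0.90, adjusted p = 2.02e-05; -6.87 ± 0.90 without sample 1). HSL and AP cells differed by an adjusted p of 0.246, and 0.0136 without sample 2, on these few reads.

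Efna1, the main ligand of Epha2, averaged 105 ± 39.5 CPM in basal, 178 ± 73.1 in AP and 52.6 ± 12.5 CPM in HSL libraries (SD, n = 6). HSL cells were lower than AP cells by -1.76 ± 0.31 (adjusted p = 0.000203) and than basal cells by -1.0 ± 0.30 (adjusted p = 0.00864). AP cells were higher than basal by 0.76 ± 0.30 (adjusted p = 0.0494), in 6 of 6 samples. That call was lost without sample 2 (adjusted p = 0.102), 3 (0.0666), 4 (0.0951), 5 (0.0783) or 6 (0.145), with median-ratio size factors (0.0528), with no low-count filter (0.0586), by limma-voom (0.053) and with only these populations fitted (0.0726), and its adjusted p was 0.0111 without sample 1.

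Efna4, a ligand of EphA receptors that lies 52.2 kb from Efna1 on chromosome 3, had its highest mean in basal cells. It averaged 15.3 ± 2.75, 5.07 ± 1.81 and 10.6 ± 8.61 CPM (SD, n = 6), lower in AP than basal cells by -1.59 ± 0.37 (adjusted p = 0.00159). The HSL library of sample 1 was at 28.0 CPM, others up to 9.09. HSL were higher than AP cells by 1.07 ± 0.36 (adjusted p = 0.0249; 0.0548 without sample 2, 0.066 without 3, 0.0605 without 6; 0.62 ± 0.24 without sample 1, adjusted p = 0.0408). That call was also lost with scaling by total counts (adjusted p = 0.073), with no low-count filter (0.0516) and with only these populations fitted (0.0697). HSL and basal cells differed by -0.52 ± 0.36 (adjusted p = 0.223), by -1.10 ± 0.24 without sample 1 (adjusted p = 0.000752) and by -0.75 with the sample block (adjusted p = 0.0211). Another gene shares 11.2% of its exons. Efna3, which lies between these genes and is not among the 46, averaged 5.59 ± 1.44, 0.493 ± 0.259 and 2.35 ± 0.756 CPM (SD, n = 6), lower in AP than basal by -3.49 ± 0.34 (adjusted p = 1.26e-07) and higher in HSL than AP cells by 2.24 ± 0.32 (adjusted p = 2.82e-05). The neighbours Efna1, Efna3 and Efna4, 32.8 and 10.4 kb apart, thus had their highest means in AP, basal and basal cells.

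Efna2 averaged 6.56 ± 1.73, 3.18 ± 1.40 and 4.48 ± 0.927 CPM (SD, n = 6), lower in AP than basal cells by -1.04 ± 0.27 (adjusted p = 0.00345). Its basal library of sample 1 was at 10 CPM, others up to 6.33. With the sample block HSL cells differed from basal by -0.54 (adjusted p = 0.0158, from 0.0827) and from AP by 0.57 (adjusted p = 0.0174, from 0.146; 0.0226 without sample 1).

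Of the 8 Eph receptors, 6 were called lower in HSL than AP cells and 0 higher (20.1 and 19.8% of all genes). Ephb3 (ENSMUSG00000005958, chr16:21204755-21223305, plus strand), a receptor of B-type ephrins known from the intestinal crypt, was at 60.1, 74.6 and 91.8 CPM in basal, 71.5, 331 and 444 CPM in AP and 45.3, 56.0 and 62.3 CPM in HSL libraries. The AP library of sample 1 (71.5 CPM) lay among the basal libraries, and the other 5 AP libraries were above all others. AP cells were higher than basal by 1.94 ± 0.30 (adjusted p = 4.24e-05; 2.09 ± 0.21 without sample 1) and HSL lower than AP cells by -2.38 ± 0.31 (adjusted p = 1.05e-05). HSL and basal cells differed by -0.44 ± 0.30 (adjusted p = 0.213).

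Epha2, a receptor of A-type ephrins abundant in epithelia (ENSMUSG00000006445, chr4:141301240-141329384, plus strand), had the same order of means. It was at 28.4, 141 and 184 CPM in basal, 59.8, 234 and 286 CPM in AP and 37.7, 44.2 and 58.4 CPM in HSL libraries, and sample 1 gave the lowest library of each population. Levels in HSL cells were lower than in AP by -2.13 ± 0.38 (adjusted p = 0.000244) and than basal cells by -1.37 ± 0.37 (adjusted p = 0.00409). AP and basal cells differed by 0.76 ± 0.37 (adjusted p = 0.106), higher in 6 of 6 samples, which passed the test without sample 1 (0.75 ± 0.22, adjusted p = 0.00848), with the sample block (0.79, adjusted p = 0.0113) and with scaling by total counts (0.89, adjusted p = 0.0432).

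Epha4, which binds ephrins of both types (ENSMUSG00000026235, chr1:77367185-77515088, minus strand), was at 43.6, 66.4 and 84.6 CPM in basal, 20.8, 22.3 and 26 CPM in AP and 0.659, 1.8 and 6.9 CPM in HSL libraries. No populations overlapped, and the order was basal, AP, HSL. The differences were -1.55 ± 0.39 for AP against basal (adjusted p = 0.00319), -4.57 ± 0.44 for HSL against basal (adjusted p = 8.52e-08) and -3.02 ± 0.42 for HSL against AP cells (adjusted p = 1.82e-05).

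Epha7, another receptor of A-type ephrins (ENSMUSG00000028289, chr4:28813131-28967499, plus strand), was low in HSL cells alone. Its level was 18.2, 36.0 and 47.0 CPM in basal, 22.1, 36.6 and 48.3 CPM in AP and 5.64, 6.97 and 12.2 CPM in HSL libraries. HSL libraries lay below all others, and AP and basal libraries overlapped over nearly their whole range. HSL cells were lower than basal by -2.14 ± 0.25 (adjusted p = 6.63e-07) and than AP cells by -2.23 ± 0.25 (adjusted p = 1.93e-06), and AP and basal cells differed by 0.09 ± 0.23 (adjusted p = 0.78).

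Ephb2, a receptor of B-type ephrins (ENSMUSG00000028664, chr4:136647539-136835988, minus strand), was at 9.82, 13.4 and 19.4 CPM in basal, 1.81, 7.32 and 32.2 CPM in AP and 0.286, 0.789 and 7.88 CPM in HSL libraries. Sample 1 was the highest library of each population, at 32.2 CPM in AP (others up to 7.82) and 7.88 in HSL cells (others up to 1.21). HSL cells were lower than basal by -2.86 ± 0.78 (adjusted p = 0.00398; -4.26 ± 0.46, adjusted p = 7.94e-07, without sample 1). HSL were lower than AP cells by -2.42 ± 0.76 (adjusted p = 0.017), by -3.12 ± 0.45 without sample 1 (adjusted p = 3.16e-05), and not called without sample 2, 3 or 5 (adjusted p = 0.0538, 0.0552 and 0.0548). AP and basal cells differed by -0.44 ± 0.72 (adjusted p = 0.648), by -1.13 ± 0.40 without sample 1 (adjusted p = 0.0263) and by -1.08 with the sample block (adjusted p = 0.0307).

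Ephb4, the receptor of Efnb2 known from veins, averaged 161 ± 25.0, 118 ± 13.3 and 62.5 ± 14.4 CPM (SD, n = 6). It was lower in HSL than basal by -1.36 ± 0.14 (adjusted p = 2.19e-07) and than AP cells by -0.92 ± 0.14 (adjusted p = 5.57e-05). AP cells were lower than basal by -0.44 ± 0.14 (adjusted p = 0.0157; 0.0679 without sample 2, 0.111 without sample 3 and 0.199 with scaling by total counts). Ephb6, a receptor without kinase activity, averaged 227 ± 36.1, 82.7 ± 19.0 and 66.6 ± 14.6 CPM (SD, n = 6), lower than basal by -1.46 ± 0.18 (adjusted p = 2.03e-06) and -1.77 ± 0.18 (adjusted p = 1.27e-07). HSL and AP cells differed by -0.31 ± 0.17 (adjusted p = 0.161; 0.0259 without sample 1 and 0.0243 with scaling by total counts).

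Epha1 stood at nearly the same level in all 3 populations, with 36.3 ± 6.63 CPM in basal, 36.0 ± 3.91 in AP and 35.7 ± 4.67 CPM in HSL libraries (SD, n = 6). Its differences were -0.01 ± 0.13, -0.02 ± 0.13 and -0.01 ± 0.13 (adjusted p = 0.964, 0.902 and 0.951), and another gene shares 18.5% of its exons. Ephb1, outside the 46, showed the largest basal excess of the receptors named here. It averaged 87.6 ± 21.6 CPM in basal, 0.284 ± 0.383 in AP and 0.287 ± 0.289 CPM in HSL libraries (SD, n = 6), lower than basal by -8.22 ± 0.76 (adjusted p = 7.58e-08) and -8.14 ± 0.76 (adjusted p = 5.39e-08), and 41.3% of its exons are shared with another gene.

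Of the other genes of these families, 31 of 32 listed had a value and 21 were tested. In AP against basal cells 9 were called lower and 2 higher (median -0.66), where 23.1 and 21.5% of all genes were. In HSL against basal cells 12 were lower and 3 higher (median -1.26), where 30.6 and 27.8% of all genes were. In HSL against AP cells 5 were lower and 2 higher (median -0.27), where 20.1 and 19.8% of all genes were. Rgmb, Flrt1 and Flrt3 were listed at 0 in all libraries. The spans of Flrt1 and Flrt3 lie wholly within other genes, so that those values say nothing of their levels.

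Genes that carry the signal within the cell, such as kinases, exchange factors and adaptors, were called in both directions. Among the 43 that passed the filter, 10 were higher and 18 lower in AP than basal cells (median -0.32; 21.5 and 23.1% of all genes). In HSL against basal cells 12 were higher and 18 lower (median -0.33; 27.8 and 30.6% of all genes), and in HSL against AP cells 15 were higher and 15 lower (median 0.05; 19.8 and 20.1% of all genes). Mical2, of the actin-oxidising family that acts downstream of plexins, was lower than basal in AP cells by -5.29 ± 0.31 (adjusted p = 3.3e-10). Also lower there were Vav3, an exchange factor activated by Eph receptors, by -2.90 ± 0.24 (adjusted p = 2e-08), and Rnd1, a GTPase that binds plexins, by -2.32 ± 0.21 (adjusted p = 5.42e-08). Higher in AP than basal cells were Met, the receptor of hepatocyte growth factor that can associate with class B plexins (2.86 ± 0.23, adjusted p = 1.25e-08), the kinase Fes (2.87 ± 0.27, adjusted p = 7.82e-08) and Ngef, the Eph-associated exchange factor ephexin (2.82 ± 0.29, adjusted p = 3.57e-07). Another gene shares 65.9% of the Ngef span.

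In HSL against basal cells the protease Adam10, which cleaves ephrins, was higher by 3.02 ± 0.18 (adjusted p = 1.49e-10), at 1340 ± 265 CPM in HSL, 367 ± 89.5 in AP and 165 ± 15.6 in basal libraries (SD, n = 6). The adaptor Nck2 was higher by 1.94 ± 0.23 (adjusted p = 7.84e-07) and Ngef by 2.58 ± 0.29 (adjusted p = 5.72e-07). The GTPase genes Rnd3 (-3.91 ± 0.23, adjusted p = 2.11e-10) and Rnd1 (-3.42 ± 0.22, adjusted p = 4.74e-10) and the kinase Fyn (-4.51 ± 0.34, adjusted p = 3.9e-09) were lower. In HSL against AP cells Adam10 (1.87 ± 0.17, adjusted p = 2.86e-07), Vav3 (2.13 ± 0.23, adjusted p = 1.92e-06) and Rnd2 (1.35 ± 0.16, adjusted p = 3.76e-06) were higher. Met (-2.91 ± 0.23, adjusted p = 1.24e-07), Rnd3 (-2.13 ± 0.22, adjusted p = 9.11e-07) and Srgap3, a Robo-binding GTPase-activating protein (-3.53 ± 0.44, adjusted p = 7.21e-06), were lower.

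Levels can be compared between genes only per length, here as mean CPM per kb of annotated exons. In basal cells the highest ligands on this scale were Ntn4 (58.5 CPM per kb), Efna1 (57.6) and Sema3c (45.2), and the highest receptors Ephb6 (60.1), Plxnb2 (42.8) and Ephb4 (34.6). In AP cells they were Efna1 (97.5 CPM per kb), Ntn1 (38.1) and Ntn4 (29.9) among ligands and Plxnb2 (62.9), Ephb3 (43.2) and Epha2 (42.9) among receptors. In HSL cells Sema4c (38.5 CPM per kb), Efna1 (28.7) and Sema4a (19.8) led the ligands and Plxnb2 (85.8), Ephb6 (17.7) and Ephb4 (13.5) the receptors. Per kb of the gene width given in the deposited tables, which equals the genomic span with introns for 32 of the 46 genes, Ntn4 was 8th among basal ligands and Ephb6 2nd among basal receptors. The other genes at the head of a list, Efna1 and Plxnb2 in AP and Sema4c and Plxnb2 in HSL cells, also ranked first on that scale. Of the genes named after them, Sema3c was 7th among basal ligands, and Ntn1 was 5th and Ntn4 7th among AP ligands. Sema4a and Ephb4 were each 4th in HSL cells, and the others named stayed in 1st to 3rd place.

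Nerve and Schwann cell, adipocyte and erythroid markers were measured as other possible sources of these transcripts. The nerve and Schwann list summed to 170 to 262 CPM in basal, 424 to 967 in AP and 504 to 804 CPM in HSL libraries, led by Erbb3, Sox10 and Ncam1, of which mammary epithelium also expresses the first 2. In AP against basal cells 3 of 7 passed the test as higher and 2 as lower, and in HSL against basal cells 2 as higher and 5 as lower (median -2.34). Adipocyte markers, mainly Fabp4, summed to 93.4 to 300 CPM in basal, 25.4 to 119 in AP and 10.5 to 57.0 CPM in HSL libraries. Erythroid markers, mainly Hbb-bs, Hba-a2 and Hba-a1, summed to 65.2 to 264, 13.4 to 69.7 and 9.36 to 32.4 CPM, and 4 of 4 tested were lower than basal in both AP and HSL cells. Tubb3 and Alas2 were listed at 0 throughout, and since 100% of their exons are shared with another gene, those values say nothing of their levels. The adipocyte and erythroid sums had their highest medians in basal libraries, where most guidance genes had their highest means. So did the endothelial, fibroblast, pericyte and leukocyte sums, while the nerve and Schwann sum had its highest median in AP libraries. What part these cell types had in the results was not tested.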

How the data were processed

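The deposited tables hold whole-number read counts per gene for each library, per the file headers, for 52636 gene identifiers. The authors' RPKM values beside them, per the file headers, were not used for results. The submitters' processing notes name GRCm38 as the build; for aligner and counter, nothing was given in the sources used. Symbols and coordinates came from GENCODE M21, which holds 52489 of the identifiers; the other 147 held 0.00303 to 0.00677% of counts and were left out. The library kits, Smart-Seq V4 and Nextera XT per the labels' protocols, do not mark strand, so reads of overlapping genes cannot be told apart.

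The analysis used edgeR 4.0.16 (R 4.3.3). Genes passing filterByExpr at a minimum count of 10 were scaled with TMM, and fitted with a robust quasi-likelihood model of all 18 libraries with 1 mean per population. The F test was adjusted by Benjamini-Hochberg over the 16471 genes. The script was tested on simulated counts. Alternatives were DESeq2 1.42.0, limma-voom (limma 3.58.1), other scalings, no filter, a sample block, pairs of populations alone, samples 1 to 3 or 4 to 6 alone, and leaving out each sample. Tables were joined with pandas 2.3.3 in Python 3.11.15. P-values measure the spread between samples, which the design text describes as separate animals.

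Libraries with the same sample number deviated together: over 18 pairs their deviations from the population means correlated at 0.13 to 0.63 (median 0.27), against -0.41 to 0.22 for other pairs. The numbers were therefore taken to pair the samples, a reading that comes from the data, and blocked values stand beside results whose call they change. The main fit does not use this pairing and treats the 18 libraries as independent. A shared animal and shared handling of equal numbers cannot be told apart by these correlations.

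The members and lists were chosen with earlier results of these data known. Library values are given for the 22 members with a mean of at least 10 CPM in 1 population and a call with a fold of at least 4. Of the other family genes, those called with a fold of at least 4 and at least 5 CPM are named, at most 4 per direction. Of the signalling genes, at most 3 per direction with a fold of at least 2 are named, by adjusted p. Slit1, Robo3, Dcc, Plxna3, Notch3, Mcam, Rgs5 and the genes listed at 0 fall outside these rules and were named after their values were seen.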

Additional observations from a re-analysis of the deposited data

Results flagged for a closer look

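In 29 of the 138 groups of 6 libraries (21%) the highest or lowest library of a guidance gene lay apart from the other 5 by more than Dixon's criterion allows. About 1 group in 20 would do so among independent groups of normally distributed values. The groups here share their libraries, so that rate does not measure chance. Sample 1 was the library apart in 22 of the 29, high in 17 and low in 5. Leukocyte markers were at their highest in the sample 1 library of each population. They summed there to 432 CPM in basal (others up to 396), 143 in AP (others up to 111) and 204 in HSL cells (others up to 103). The markers of each population itself were at their lowest in sample 1. The part of either in these values was not tested.

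In basal cells sample 1 was high for Sema3a (2.64 CPM, others up to 0.966), Sema3b (296, others up to 58.0), Sema4a (107, others up to 52.2), Efna2 (10, others up to 6.33), Efnb1 (191, others up to 142) and Efnb2 (112, others up to 57.0), and low for Sema3c (189, others at least 318). In AP cells it was high for Plxnb1 (185 CPM, others up to 90.1) and Ephb2 (32.2, others up to 7.82), and low for Ntn4 (26.8, others at least 111), Sema4a (33.7, others at least 64.5) and Sema5a (4.95, others at least 10.1). In HSL cells it was high for Slit2 (2.66 CPM, others up to 0.629), Unc5c (0.3, others up to 0.113), Sema3c (61.8, others up to 8.64), Sema3e (1.69, others up to 0.506), Plxna4 (0.759, others up to 0.145), Plxnd1 (8.08, others up to 2.98), Efna4 (28.0, others up to 9.09), Efnb2 (12.3, others up to 5.73) and Ephb2 (7.88, others up to 1.21), and low for Sema4a (38.4, others at least 108).

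Sample 3 was high for Slit3 in AP (15.0 CPM, others up to 4.35), Efna5 in AP (179, others up to 81.4) and Plxna4 in basal cells (14.6, others up to 6.03). The remaining libraries apart were all in AP cells: Sema4g in sample 5 (1.6 CPM, others up to 0.736), Plxna4 in sample 6 (0.612, others up to 0.136), Nrp1 in sample 6 (20.1, others up to 11.3) and Efnb3 in sample 2 (0.151, others up to 0.021, on few reads).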

How the results depend on the processing

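None of the 98 calls over the 46 genes and 3 comparisons changed direction under the alternatives that gave them a value. All 15 did so except that the fits of only the 2 populations compared gave no value for 6 differences of genes that did not pass the filter there, among them the 2 calls of Sema3a. The 46 changes of direction were all among the 40 differences that were not called. The sample block lost 0 calls and gained 9, each given in the report, and changed no other call. Samples 1 to 3 alone called 2 genes higher in AP than basal (5 with all samples), 2 higher in HSL than basal (6), 3 higher (8) and 10 lower (16) in HSL than AP cells. The count higher in HSL than AP cells was 4 with scaling by total counts and 4 with no filter. Leaving out each sample in turn gave 4 to 7 genes higher and 25 to 31 lower in AP than basal, 4 to 6 and 30 to 34 in HSL than basal, and 3 to 9 and 14 to 20 in HSL than AP cells; fewer samples enter these fits, and the cause of each change was not tested.

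By limma-voom, the fold of some called results moved by more than 1.5 times, given here as the new log2 differences. In HSL against basal cells these were Slit2 (-7.20), Sema3a (-3.41), Sema3b (-3.65), Sema3c (-5.24), Sema3e (-2.69), Plxnd1 (-3.73), Efnb3 (-6.48) and Ephb2 (-3.74). In AP against basal cells they were Sema3b (-3.16), Sema3d (-5.76) and Efnb3 (-8.02), and in HSL against AP cells Sema3e (-3.70).

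Changes of direction, as log2 differences, were as follows. In HSL against AP cells, Neo1 was at -0.11 with total counts, -0.01 with no filter, -0.004 with only these populations fitted, -0.05 in samples 1 to 3 and -0.07 to 0.09 with 1 sample left out. Unc5b was at -0.11 with total counts, -0.0007 with no filter, -0.09 in samples 4 to 6 and -0.04 to 0.15 with 1 left out. Plxnd1 was at -1.05 by limma-voom, -0.42 with the block, -1.83 in samples 4 to 6 and -0.36 to 0.32 with 1 left out. Efnb1 was at -0.04 with total counts, -0.11 in samples 4 to 6 and -0.02 to 0.19 with 1 left out. Samples 4 to 6 alone gave 0.17 for Sema3b, 1.29 for Sema3d, -2.99 for Plxna4 and 0.02 for Epha1. With 1 sample left out, Plxna4 ran from -1.31 to 1.6, Nrp1 from -0.004 to 0.45 and Epha1 from -0.1 to 0.004.

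In AP against basal cells, Epha1 was at 0.13 with total counts, 0.03 with no filter, 0.01 by limma-voom, 0.004 with the block, 0.03 with only these populations fitted, 0.1 in samples 1 to 3 and -0.05 to 0.05 with 1 left out. Sema4b was at -0.02 by limma-voom, -0.02 with the block, -0.13 in samples 4 to 6 and -0.07 to 0.13 with 1 left out. Sema3a was at 0.32 in samples 4 to 6 and -1.77 to 0.02 with 1 left out. Samples 1 to 3 alone gave -0.12 for Sema4a, samples 4 to 6 alone -0.01 for Plxnb1, and Epha7 ran from -0.02 to 0.17 with 1 left out. In HSL against basal cells, samples 4 to 6 alone gave 0.05 for Sema7a, and Epha1 ran from -0.08 to 0.03 with 1 left out.

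Depth limits the members with few reads, such as Efnb3, Sema3a, Sema3d, Plxna4 and Unc5c in luminal libraries. Whether reads in introns were counted is not known. The gene width in the deposited tables equals the genomic span, introns included, for 85.6% of matched identifiers. Levels of genes that share their span or exons with another gene are uncertain. The shared part of an exon is the part within the span of another gene, introns included.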
